A study of Mus musculus with 8 samples.

Results

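The mouse microRNAs (miRNAs) mmu-miR-150, mmu-miR-181a, mmu-miR-181b, mmu-miR-181c, mmu-miR-181d, mmu-miR-342-3p and mmu-miR-342-5p, written without their species prefix from here on, are known for roles in lymphocytes or for high levels in blood cells, and here they were measured in dendritic cells with and without a TLR9 ligand. They were taken by name from the array, and all 7 were found among its 567 mouse miRNAs. The CpG group was 4 samples of C57BL/6 mouse dendritic cells that were kept overnight with 10 µM of ODN1826, a CpG oligonucleotide of class B, and the untreated group was 4 samples of the same kind of cells without it, described as medium alone in one label and as PBS in another. Both groups were marrow cells grown with GM-CSF at 40 ng/ml, from which the non-adherent cells were harvested on day 9. CpG oligonucleotides carry unmethylated CG pairs and are sensed by TLR9, and C57BL/6 is an inbred laboratory strain. No oligonucleotide without CG pairs was among the samples. Each replicate number is carried by a CpG and an untreated sample, whose arrays lay side by side on the slide. The labels do not say whether a number stands for an animal, a culture or a technical repeat. A p-value here therefore refers to scatter among the 8 samples that could be technical. The cells were profiled in bulk, so a change in the number of cells of one type and a change in the RNA per cell cannot be told apart.

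A miRNA guides a silencing complex to messenger RNAs by pairing through its seed, bases 2 to 8 from the 5′ end, and the targets are then degraded or translated less. miR-150 is abundant in mature B and T cells and targets the transcription factor Myb, and the miR-181 family sets the sensitivity of developing T cells to antigen and acts in early B cell development. miR-342 is made in several blood cell lineages, lymphoid and myeloid, and both arms of its hairpin give mature products. Dendritic cells arise from myeloid as well as lymphoid progenitors, and GM-CSF cultures of marrow favour the myeloid ones.

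The mature sequences are shown because the seeds group the members and because near-identical members bear on how far each probe can tell them apart. They are from RefSeq (GRCm38.p6), 5′ to 3′, with the seed in capitals, and 6 of the 7 members had an entry.
miR-181a: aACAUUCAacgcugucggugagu
miR-181b: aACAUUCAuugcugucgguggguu
miR-181c: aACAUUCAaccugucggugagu
miR-181d: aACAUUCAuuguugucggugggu
miR-342-3p: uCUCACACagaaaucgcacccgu
miR-342-5p: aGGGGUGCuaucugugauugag
The 4 miR-181 members share the seed ACAUUCA, which no other of the 1679 mature names in that table carries. Neither miR-342 seed occurs in any other name of the table. Outside the seed, miR-181a and miR-181c lie 1 edit (a substitution, insertion or deletion) apart, miR-181b and miR-181d lie 2 apart, and the other pairs differ by 4 or 5 edits.

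Each miR-181 probe covers the 3′ part of its miRNA, and the longest probes of miR-181c and miR-181d reach into the seed, from base 4 and base 7. The 4 members share the seed, so it does not tell them apart. The stretches that the longest probe of each miR-181 member covers, read from the probe coordinates and the RefSeq sequences, were as follows.
miR-181a target: cgcugucggugagu
miR-181b target: ugcugucggugggu
miR-181c target: auucaaccugucggugagu
miR-181d target: cauuguugucggugggu
The miR-181a stretch of 14 bases lies 1 edit from the nearest stretch of miR-181c, 2 from that of miR-181b and 3 from that of miR-181d. The miR-181b stretch lies 1 edit from miR-181d. The shorter probes, with 13 target bases, differ less: that of miR-181a lies 1 edit from miR-181b and from miR-181c. That of miR-181b lies 1 edit from miR-181a and from miR-181d. How far the probes bind RNA of the other family members was not tested.

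In the mm9 coordinates of the array annotation, the longest probes covered chromosome 1 from 139863054 to 139863067 for miR-181a and from 139863236 to 139863249 for miR-181b, both on the plus strand. Those of miR-181c and miR-181d covered chromosome 8 from 86702823 to 86702841 and from 86702658 to 86702674, on the minus strand. On the plus strand of chromosome 12 they covered 109896851 to 109896869 for miR-342-5p and 109896896 to 109896912 for miR-342-3p, and on chromosome 7 52377138 to 52377153 for miR-150. By the RefSeq annotation, the hairpin of miR-342 lies within Evl, a gene for a regulator of actin. Mature miR-181a and miR-181b are each made from 2 loci, a pair of neighbouring hairpins on chromosome 1 that lies in no other gene and another pair on chromosome 2 within Nr6a1, so their signal is the sum of both loci. The hairpins of miR-181c and miR-181d neighbour each other as well.

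The arrays of CpG samples were brighter as a whole, which matters for every level below. The 75th percentile of the signal over 177 mouse miRNAs (those detected on every array) was 156.6 to 280.5 intensity units on the CpG arrays and 101.1 to 143.8 on the untreated arrays, a 1.74-fold difference of the geometric means (two-sided exact permutation test, p = 0.0286, the smallest that the 70 arrangements of 4 and 4 arrays can give). Detected mouse miRNAs numbered 213 to 236 on CpG arrays and 191 to 203 on untreated arrays (same exact test, p = 0.0286). The hur control feature, here the geometric mean of 4 spot groups of that name, was 1.18-fold brighter on the CpG arrays (exact p = 0.114). Scaled values below are log2 of the signal over each array's 75th percentile, so that 0 is that percentile, and unscaled values are given beside them. Of the marker lists, all 3 myeloid miRNAs (miR-223 and both arms of miR-142) were detected on all 8 arrays. Their summed total gene signals (unscaled deposited intensities) were 3703 to 6438 in CpG samples and 3235 to 3920 in untreated samples. The member signals below are means over probes, a different measure. None of the 3 erythroid, 6 endothelial and stromal or 4 other-tissue miRNAs on the array was detected on any array.

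Detection split the set into 4 members measured on every array and 3 that were at or near background. miR-181a, miR-181b and miR-342-3p were well above background at 160 of 160 spots, 20 on each array, and no spot of any member was saturated. miR-342-5p was detected on all 8 arrays from fewer spots, 22 of 80 (27.5%) in CpG samples and 20 of 80 (25%) in untreated samples. The signal of a miRNA over its error estimate in the deposited summaries was 12.01 to 13.84 for miR-181a, miR-181b and miR-342-3p and 5.38 to 8.95 for miR-342-5p.

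miR-150, the lymphocyte miRNA of the set, was detected on 0 of 8 arrays and at 0 of 160 spots. Its signal was -0.49, 0.54, 1.02 and 1.66 intensity units in CpG samples and 0.27, 0.63, 1.58 and -0.27 in untreated samples. The groups overlapped, and all 8 values lay where the negative control spots of the same arrays lay, which had means of -0.52 to 0.90 and SDs of 1.41 to 2.11. No fold is given, since both groups were at background. The other arm of its hairpin, miR-150*, was also detected on 0 of 8 arrays.

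miR-181c and miR-181d, the family members from chromosome 8, were each detected on a single array. miR-181c had 3.95, 2.08, 2.72 and 3.27 units in CpG samples and 1.38, 1.15, 2.31 and 1.23 in untreated samples, and only CpG replicate 1 counted as detected. miR-181d had 3.07, 4.24, 3.23 and 5.64 units in CpG samples and 2.43, 1.78, 3.56 and 1.84 in untreated samples, and only CpG replicate 4 counted as detected. For both miRNAs the groups overlapped through untreated replicate 3, and 1 of 160 spots of miR-181c and 3 of 160 of miR-181d were well above background. Neither entered the test, and neither has a fold.

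miR-342-3p had 917, 1077, 926 and 1529 intensity units in CpG samples and 785, 808, 917 and 833 in untreated samples before scaling. The groups overlapped only in that CpG replicate 1 and untreated replicate 3 were equal to the unit, and CpG replicate 4 was the brightest array. miR-342-5p, an arm also studied in macrophages, had 7.55, 10.4, 7.96 and 15.1 units in CpG samples and 5.73, 7.93, 8.41 and 7.17 in untreated samples, again with overlap and with CpG replicate 4 the brightest. miR-181a had 156.6, 138.3, 133.0 and 181.3 units in CpG samples and 98.4, 90.2, 112.7 and 96.4 in untreated samples. miR-181b had 91.0, 104, 86.6 and 136 units in CpG samples and 61.8, 72.9, 71.9 and 72.3 in untreated samples. Every CpG array was above every untreated array for both miR-181 members, while the miR-342 arms overlapped between the groups.

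**Figure D1:**
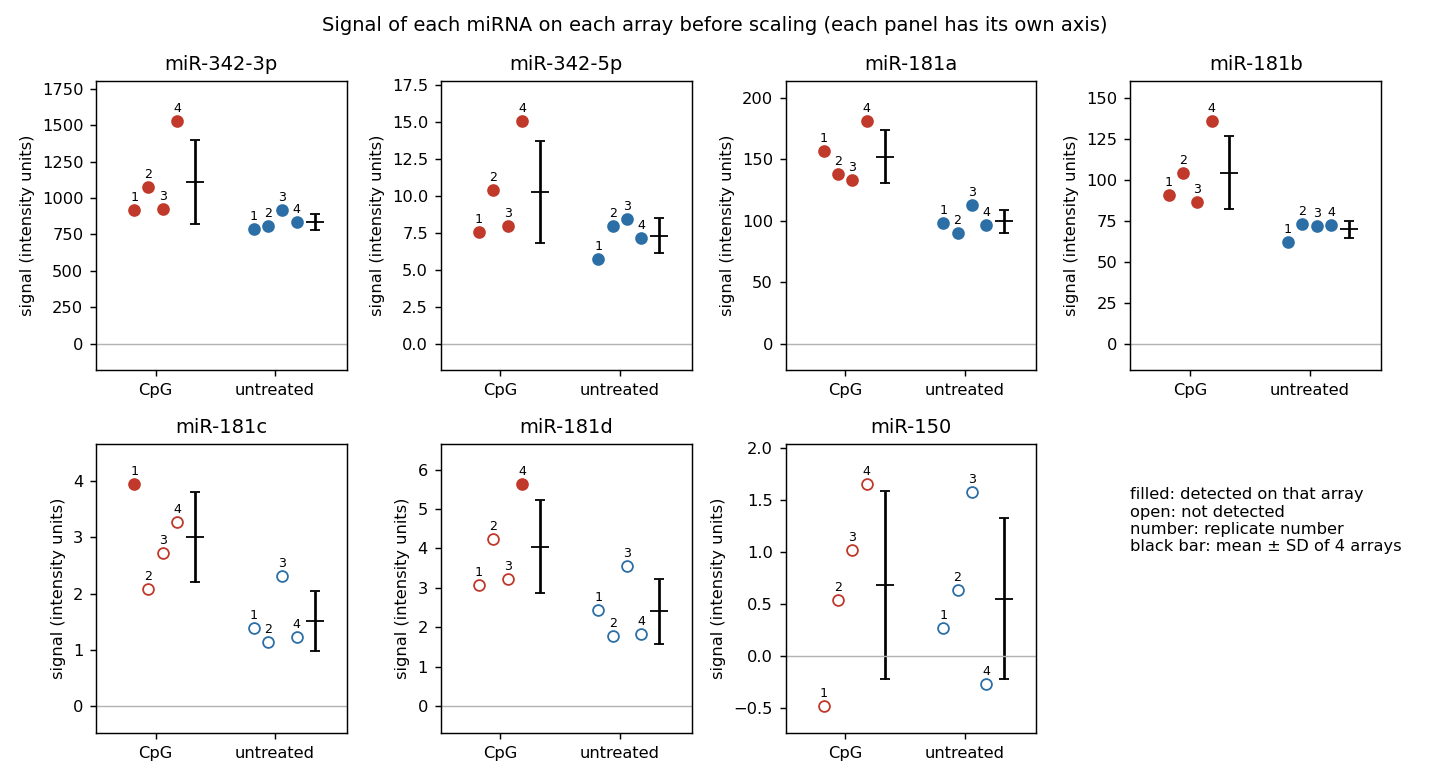
Mean processed signal (intensity units, not scaled between arrays) of the 7 members on each array, with CpG samples left of untreated samples, one point per array and bars for the group means. miR-342-3p, miR-181a and miR-181b had signals of 61.8 units or more on every array, miR-342-5p had 5.73 to 15.1, and the other 3 stayed at 5.64 or less.

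Averaged over the 4 arrays a group, the unscaled means were 1112 ± 288 in CpG samples against 836 ± 57.4 in untreated samples for miR-342-3p and 10.2 ± 3.45 against 7.31 ± 1.17 for miR-342-5p (SD, n = 4 each). For miR-181a they were 152 ± 21.8 in CpG samples against 99.4 ± 9.52 in untreated samples, and for miR-181b 104 ± 22.3 against 69.7 ± 5.29. On log2 without scaling the differences were 0.61 for miR-181a (1.53-fold, adjusted p = 0.0347 in limma), 0.56 for miR-181b (1.48-fold, adjusted p = 0.0512), 0.45 for miR-342-5p (1.36-fold, adjusted p = 0.153) and 0.38 for miR-342-3p (1.303-fold, adjusted p = 0.150). So 1 of the 4 measured members passed without scaling, where 41.5% of all 212 tested miRNAs passed, all of them higher in CpG samples. The CpG values lay above all untreated values for both miR-181 members, 2 of 4, as they did for 39.6% of all tested miRNAs. The median difference of all tested miRNAs was 0.60 on this unscaled log2 scale, so miR-181a lay at the median of the array and miR-342-3p below it.

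After scaling, none of the 4 measured members passed the threshold of 0.05 (0 of 4 in limma, with Benjamini-Hochberg adjustment over 212 tested miRNAs), and 14.2% of all tested miRNAs did. Both arms of miR-342 had an unadjusted p under 0.05 (2 of 4 members), as had 40.1% of all tested miRNAs. The CpG values lay below all untreated values for these 2 arms, as they did for 19.8% of all tested miRNAs. Nothing particular to the set can be read from 2 of 4 beside these shares.

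Scaled miR-342-3p was 2.55, 2.10, 2.36 and 2.45 in CpG samples and 2.96, 2.70, 2.67 and 2.79 in untreated samples. The groups did not overlap, and CpG replicate 2 was the lowest. The difference was -0.42 ± 0.15 (SE; 95% interval -0.75 to -0.09), or 0.749-fold, with an adjusted p of 0.0768 in limma. Over 25 alternatives the adjusted p ran from 0.0433 to 0.564, and 3 passed, among them the fit without CpG replicate 1 (-0.48, adjusted p = 0.0457 in limma). In that fit 70 of 209 tested miRNAs passed, against 30 of 212 as reported. The others were a floor 2 times higher and limma's trend and robust options, with which 48 and 44 of 212 passed. The arrays lay in 2 rows of the slide with 2 of each group in each row, and the difference within the rows was -0.38 and -0.46.

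Scaled miR-342-5p was -4.37, -4.60, -4.50 and -4.22 in CpG samples and -4.14, -3.97, -4.10 and -4.07 in untreated samples. These groups did not overlap either, and CpG replicate 4 and untreated replicate 1 were the nearest to each other. The difference was -0.35 ± 0.14 (SE; 95% interval -0.66 to -0.05), or 0.783-fold, with an adjusted p of 0.0941 in limma, and within the slide rows it was -0.19 and -0.52. Beside these arms, the myeloid marker miR-223 passed on the same scale (-0.60, adjusted p = 0.0284 in limma), and the other myeloid markers were at -0.20 (miR-142-3p, adjusted p = 0.273) and -0.02 (miR-142-5p, adjusted p = 0.926). The call of miR-223 was lost under the other 8 scalings (adjusted p of 0.0609 to 0.775 in limma), and its value turned to 0.20 without scaling and to 0.19 in the authors' deposited table. Its part in the values of the miR-342 arms was not tested.

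Scaled miR-181a was 0.00, -0.87, -0.44 and -0.63 in CpG samples and -0.04, -0.46, -0.35 and -0.32 in untreated samples. The groups overlapped, with CpG replicate 1 the highest of the 8 and CpG replicate 2 the lowest. The difference was -0.19 ± 0.20 (SE; 95% interval -0.63 to 0.26; adjusted p = 0.463 in limma), and within the slide rows it was -0.14 and -0.24. Scaled miR-181b was -0.78, -1.28, -1.06 and -1.04 in CpG samples and -0.71, -0.77, -1.0005 and -0.73 in untreated samples. Here too the groups overlapped, through CpG replicate 1 and untreated replicate 3. The difference was -0.24 ± 0.15 (SE; 95% interval -0.57 to 0.10; adjusted p = 0.240 in limma), and within the rows it was -0.19 and -0.28.

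**Figure D2:**
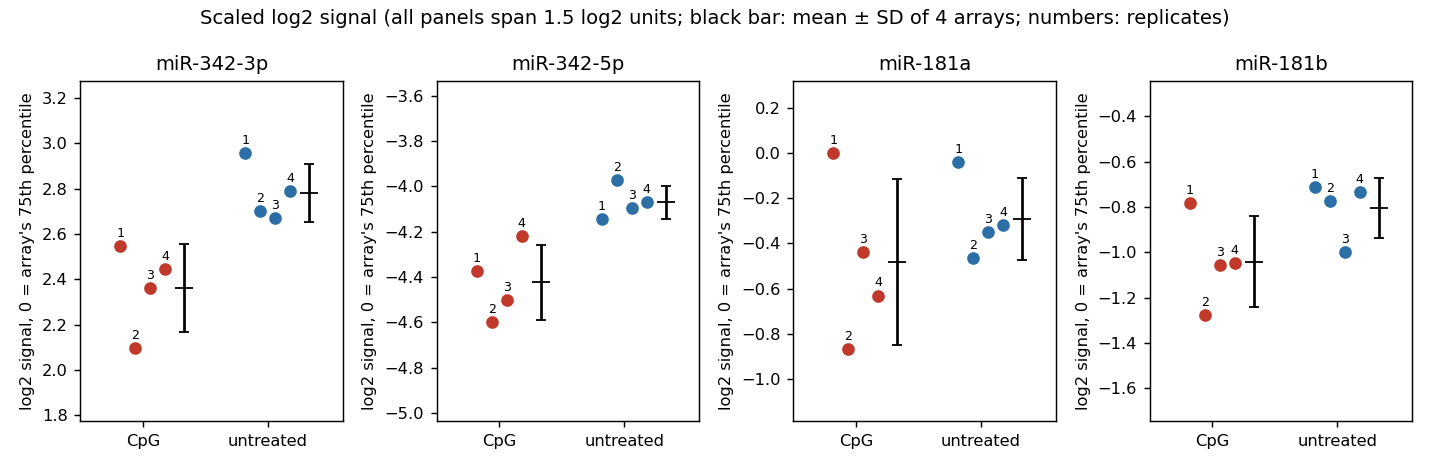
Scaled log2 signal of the 4 measured members on each array, with CpG samples left of untreated samples, one point per array and bars for the group means. The CpG points of both miR-342 arms lie below all untreated points, and those of miR-181a and miR-181b are mixed with them.

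The signs depended on the scaling. The median of all tested miRNAs was -0.19 on the scaled log2 scale, and relative to it miR-181a was at 0.00, miR-181b at -0.04, miR-342-5p at -0.16 and miR-342-3p at -0.22. Without scaling, and with scaling to the hur control feature, all 4 members were higher in CpG samples (0.14 to 0.37 on log2 with the hur feature), so no direction is stated for any of them. With the hur feature 1 of 4 members passed (miR-181b, adjusted p = 0.0449 in limma), as did 33% of all tested miRNAs, and with the values of the authors' deposited table both miR-181 members passed, 2 of 4, as did 41% of all tested miRNAs. Relative to the median of all tested miRNAs, over 9 scalings, miR-181b stayed between -0.06 and -0.03 and miR-342-5p between -0.16 and -0.02, while miR-342-3p ran from -0.22 to 0.02 and miR-181a from -0.15 to 0.01. The upper end for miR-342-3p came from quantile normalization.

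**Figure D3:**
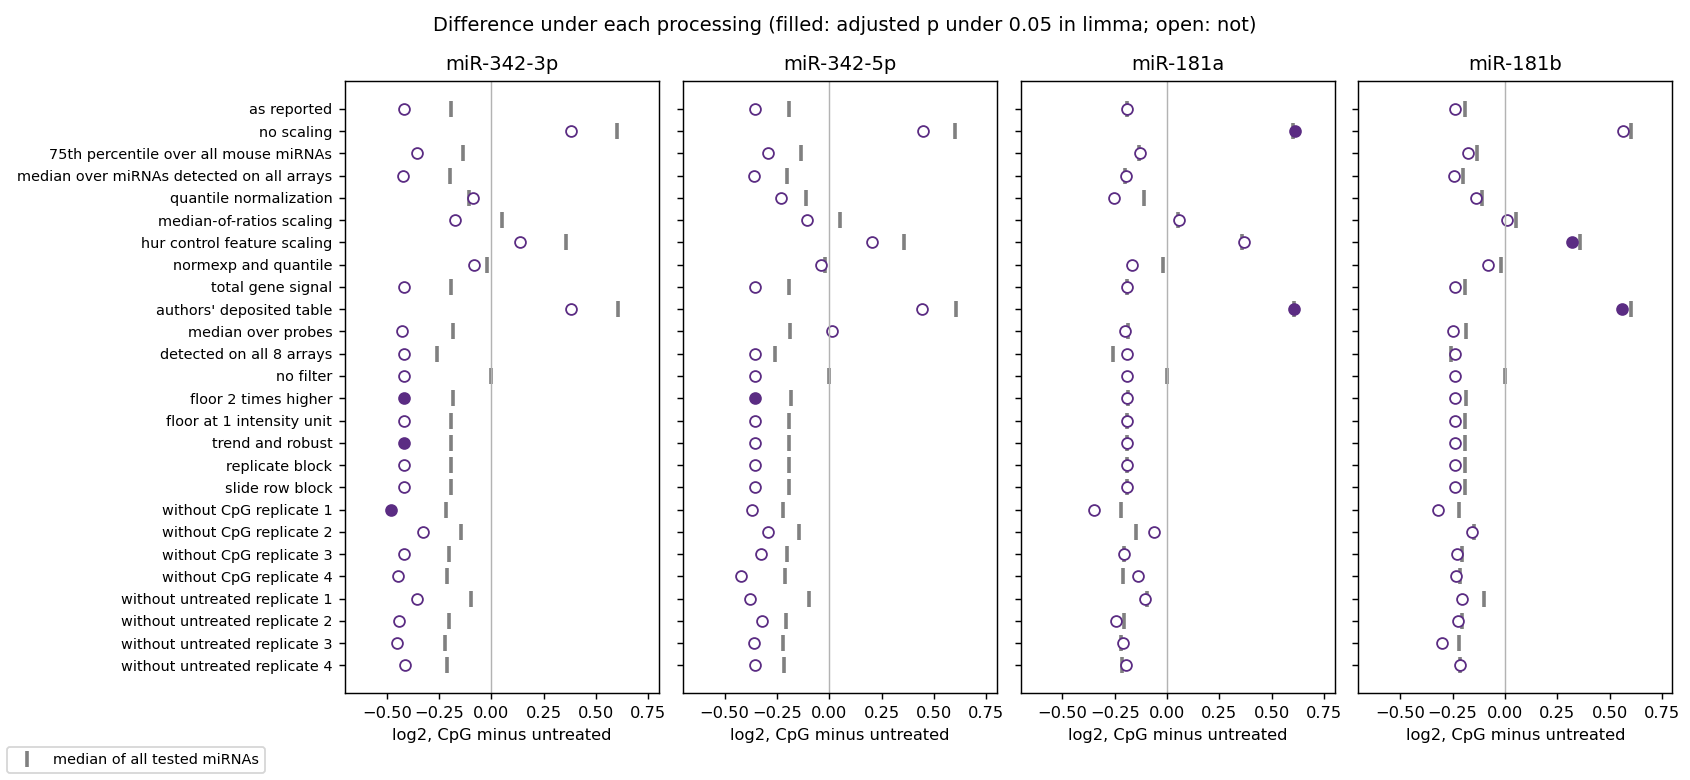
Log2 difference, CpG minus untreated, of the 4 measured members (columns) under each way of processing (lines down the page), with a grey tick for the median of all tested miRNAs and filled points where limma's adjusted p was under 0.05. The points move with the ticks from one scaling to the next, from -0.42 to 0.38 for miR-342-3p between the values as reported and those without scaling.

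The probes of miR-181a, miR-181b and miR-342-3p gave close to the same difference within each member. Unscaled log2 differences were 0.58 and 0.62 for the probes of miR-181a with 13 and 14 target bases, 0.52 and 0.58 for those of miR-181b, and 0.37 and 0.39 for those of miR-342-3p with 16 and 17. miR-342-5p rested on fewer probes: those with 16 and 17 target bases stayed between -2.59 and 0.62 units on all 8 arrays, and 82.3% to 93.4% of its summed probe signal came from the probe with 19. That probe had 26.6, 34.7, 28.5 and 52.7 units in CpG samples and 21.4, 26.1, 28.1 and 26.0 in untreated samples, a log2 difference of 0.44, with CpG replicate 1 inside the untreated range. The probe with 18 bases had 4.74, 8.84, 6.40 and 8.74 units in CpG samples and 1.82, 4.44, 6.40 and 4.71 in untreated samples. Its log2 difference was 0.82. On untreated replicate 1 it lay within the spread of that array's negative control spots (0.89 ± 1.71, SD), and on every other array above theirs. The larger difference rests on a dim signal, so no disagreement between the probes is read from it.

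**Figure D4:**
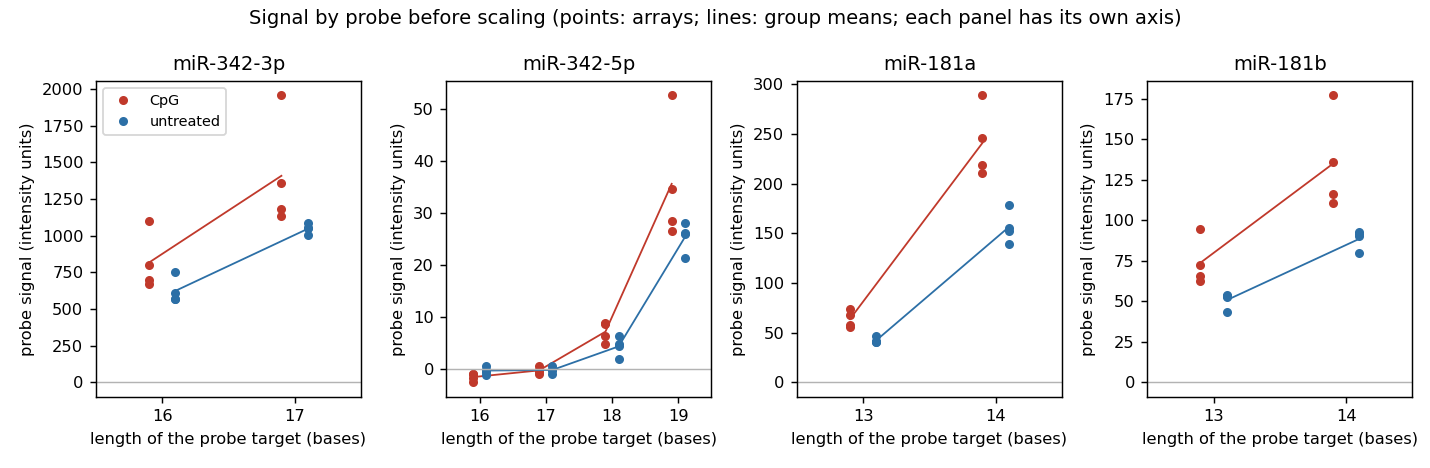
Mean processed signal of each probe of the 4 measured members on each array (intensity units), by the number of miRNA bases the probe covers, with CpG samples left of untreated samples and lines joining the group means. Probes of miR-342-5p with 16 and 17 bases sit at background and the one with 19 bases carries most of its signal.

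Differences between 2 members on the same array are left unchanged by a scaling that applies 1 factor to each array, but not by quantile normalization or another background correction. The signals of 2 probes are not comparable as levels, and only the change of their difference between groups was tested, over the 6 pairs of measured members. The arm ratio of miR-342, the signal of the 3p arm over that of the 5p arm, was 121, 104, 116 and 101 in CpG samples and 137, 102, 109 and 116 in untreated samples. The CpG ratios lay inside the untreated range but for that of replicate 4, just below it. On log2 the change was -0.06 (0.957-fold), with an interval of -0.43 to 0.25 at the 97.1% level that the exact test allows (two-sided exact permutation test, p = 0.600, adjusted p = 0.714 over 6 pairs). With only the brightest probe of each arm the geometric mean ratio was 40.0 in CpG samples and 41.4 in untreated samples (exact p = 0.571). With these signals no shift between the arms was detectable with 4 arrays a group, but the value depended on the processing. It turned to 0.31 with normexp background correction (two-sided exact permutation p = 0.0286), which lies outside the interval above. That correction adds an offset of 50 units to each spot, against a signal of 5.73 to 15.1 units for miR-342-5p. Such an offset flattens changes of a dim arm more than those of a bright one, and its part in the 0.31 was not tested. The arm ratio change turned to 0.14 with quantile normalization (exact p = 0.486) and was -0.44 with the median over probes (exact p = 0.286). No direction is stated for the arm ratio.

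miR-181b against miR-342-3p gave the smallest p of the 6 pairs. The log2 difference on an array averaged -3.40 ± 0.07 in CpG samples and -3.58 ± 0.10 in untreated samples (SD, n = 4 each), a change of 0.18 or 1.13-fold (interval -0.02 to 0.34; two-sided exact permutation p = 0.0571, adjusted p = 0.343). In 3 of 4 CpG samples it was above every untreated sample. miR-181a against miR-342-3p changed by 0.23 or 1.17-fold (interval -0.08 to 0.62; exact permutation p = 0.114, adjusted p = 0.343), also with 3 of 4 CpG samples above every untreated one. The other miR-181 pairs changed by 0.16 for miR-181a against miR-342-5p (interval -0.52 to 0.87) and by 0.12 for miR-181b against miR-342-5p (interval -0.26 to 0.49), each with an adjusted exact permutation p of 0.714. miR-181a against miR-181b, the neighbours on chromosomes 1 and 2, changed by 0.05 (interval -0.26 to 0.48; adjusted exact permutation p = 0.714). Of the 6 pairs, 0 passed after adjustment and 0 had an unadjusted exact p under 0.05. At least 4 pairs would have to reach the smallest exact p together to pass. With quantile normalization, miR-181b and miR-181a against miR-342-3p turned to -0.05 and -0.16 (exact permutation p = 0.886 and 0.286).

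**Figure D5:**
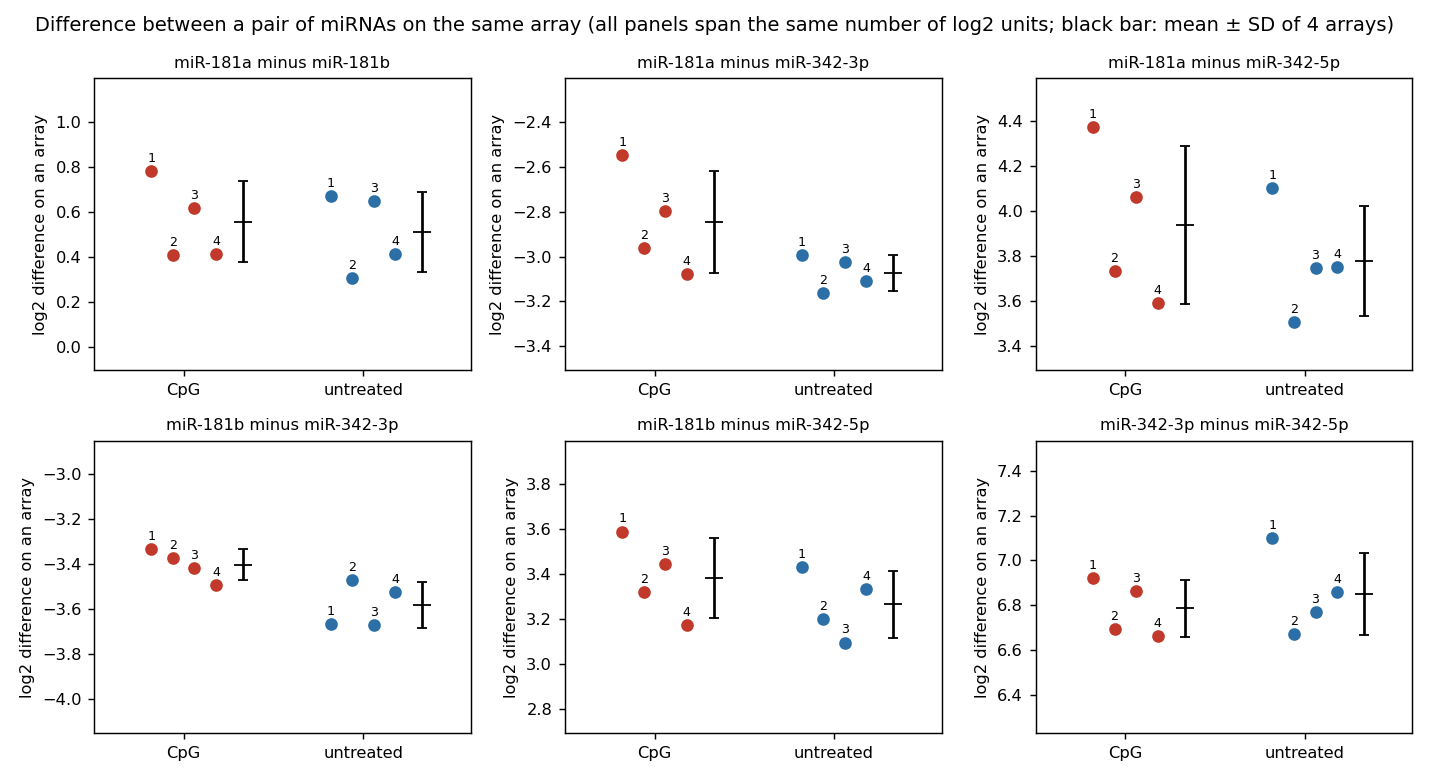
Log2 signal difference between 2 members on the same array for the 6 pairs of measured members, with CpG samples left of untreated samples, one point per array and bars for the group means. For miR-181a and miR-181b against miR-342-3p, 3 of 4 CpG points lie above all untreated points, and the miR-342 arm difference overlaps between the groups.

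The opposite arms of the miR-181a hairpins were dim. miR-181a-1*, from chromosome 1, had 3.77, 2.30, 2.16 and 3.74 units in CpG samples and 3.09, 3.33, 3.31 and 3.69 in untreated samples, and it was detected on 2 of 8 arrays, CpG replicate 1 and untreated replicate 4. miR-181a-2*, from chromosome 2, was detected on 0 of 8, so which of the loci gave the miR-181a signal cannot be read from these arms.

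Each measured member was set against 173 other mouse miRNAs detected on all 8 arrays, by the root-mean-square difference of scaled log2 values after each profile was centred on its own mean. Nearest to miR-342-3p was miR-103, made from introns of genes for pantothenate kinases, at 0.026, with a difference between groups of -0.41. miR-423-5p (0.059) and miR-148b (0.064) came next. miR-342-5p was nearest to miR-20a (0.069), let-7g (0.069) and miR-17* (0.094), and miR-181b to miR-130b (0.062), miR-140* (0.063) and miR-148b (0.064). The neighbours of miR-181a were farther off, miR-24 at 0.10, miR-671-5p at 0.12 and miR-338-3p at 0.12. The profiles share arrays and scaling, and the arms of miR-342 were not among each other's candidates, since members were left out of the search.

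Other miRNAs with known roles in lymphocyte development or activation were on the array in 22 cases, of which 20 were tested. Of these, 3 rose in CpG samples, 1 fell and 16 did not pass (limma, scaled), where 7.55% of all tested miRNAs rose and 6.6% fell, with a median of -0.18 against -0.19 over all tested miRNAs. Those that rose were miR-155, needed for germinal centre responses (1.92 on log2, adjusted p = 0.000956 in limma), miR-222, known for cell cycle control through the inhibitor p27 (1.14, adjusted p = 0.0111), and miR-146a, a brake on Toll-like receptor signalling (0.92, adjusted p = 0.0355). miR-26a, which targets the methyltransferase Ezh2, fell by 0.60 (adjusted p = 0.0375 in limma). The call of miR-26a was lost under each of the other 8 scalings (adjusted p of 0.0744 to 0.779 in limma), and its value turned to 0.20 without scaling and in the authors' deposited table. miR-155, miR-222 and miR-146a were positive under all 9 scalings and passed under each, except miR-146a with scaling to the median (adjusted p = 0.0568 in limma). Without scaling, 9 of the 20 were higher and 0 lower, at a median of 0.62 against 0.60 over all tested miRNAs.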

How the data were processed

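The authors deposited scanner output of 8 one-colour Agilent mouse miRNA arrays, from Feature Extraction version 9.5.3.1 per the file headers. The deposited processed signal is an intensity for each spot, from which the authors' software had subtracted the background, per the file headers, without scaling the arrays to each other. Deposited summaries hold an intensity for each miRNA (the total gene signal) and whether it was detected. The submitters' processing notes name limma without a version. The authors' deposited series table lists 260 miRNAs, 6 of them members, and its 2080 values equalled the total gene signal within 0.1%, so it served as an unscaled alternative. For that comparison, any total gene signal that was not positive was first set to a small positive value.

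Signals were averaged over spots without outlier flags for each probe and then over the probes of a miRNA. Each array was scaled to its 75th percentile, taken over the 177 mouse miRNAs that all 8 arrays detected, and values under a floor of 0.0107 (log2 of -6.55) were raised to it. The 212 miRNAs with detection on 3 or 4 arrays of either group, 4 of them members, were tested with limma 3.58.1 in R 4.3.3 (two-sided, Benjamini-Hochberg, threshold 0.05). Pair differences and array measures were compared by exact permutation in Python 3.11.15. The limma fit was checked on simulated data, and the permutation test on a made-up case with a known p. Alternatives were other scalings, summaries, filters and floors, and leaving out each array. The members and lists were chosen with earlier results of these data known. The miRNAs named were the members, the other arms of their hairpins, the 3 nearest profiles of each measured member, and at most 4 of the lymphocyte list by size of difference. Arrays give no read depth, and their number limits the precision.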

Additional observations from a re-analysis of the deposited data

Results flagged for a closer look

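Among the 24 groups of 4 arrays that were checked for a value far from the other 3, 1 stood out, and chance gives about 1 in 20. It was not a value of a member: untreated replicate 2 had 203 detected mouse miRNAs, against a mean of 192 on the other untreated arrays. It was still below the lowest CpG array, at 213. The cause was not tested.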

How the results depend on the processing

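The number of members called, 0 as reported, was 1 without scaling (miR-181a), 1 with scaling to the hur feature (miR-181b), 2 in the authors' deposited table (both), 2 with a floor 2 times higher (both miR-342 arms, adjusted p = 0.0433 and 0.0421 in limma), 1 with limma's trend and robust options (miR-342-3p, adjusted p = 0.0462) and 0 to 1 when an array was left out. The 1 was miR-342-3p without CpG replicate 1 (-0.48, adjusted p = 0.0457 in limma). Over all tested miRNAs, 48 of 212 passed with that floor, 44 of 212 with those options and 70 of 209 without CpG replicate 1. As reported, 30 of 212 passed. The sign turned positive without scaling, with the hur feature and in the authors' table for miR-181a (0.61, 0.37 and 0.61), miR-181b (0.56, 0.32 and 0.56), miR-342-3p (0.38, 0.14 and 0.38) and miR-342-5p (0.45, 0.20 and 0.44), and with median-of-ratios scaling for miR-181a (0.055) and miR-181b (0.0078). The median over probes turned miR-342-5p to 0.012, and turned miR-181a and miR-181b against miR-342-5p to -0.21 and -0.26. That median takes in probes at background, and their part in these values was not tested. A scaling with 1 factor to each array moves the 4 members by the same amount on log2. The median of all tested miRNAs moved too, from -0.19 as reported to 0.60 without scaling. Why the arrays differed in brightness was not tested. Leaving out an array gave -0.35 to -0.06 for miR-181a, -0.32 to -0.16 for miR-181b, -0.48 to -0.33 for miR-342-3p and -0.42 to -0.29 for miR-342-5p. With normexp background correction the miR-342 arm ratio turned to 0.31 (two-sided exact permutation p = 0.0286, adjusted p = 0.0571 over 6 pairs) and miR-181b against miR-342-3p to -0.028, and the arm ratio ran from -0.12 to 0.019 when an array was left out, positive without untreated replicate 1. miR-181a against miR-181b ran from -0.029 to 0.10, negative without CpG replicate 1 (-0.029) and without untreated replicate 2 (-0.021). Quantile normalization, added for the pairs after seeing the data, turned the arm ratio to 0.14, miR-181a against miR-181b, miR-342-3p and miR-342-5p to -0.11, -0.16 and -0.023, and miR-181b against miR-342-3p to -0.049. No pair had an adjusted p under 0.05 under the alternatives run, which says little of stability. At least 4 pairs would have to reach the smallest exact p of 0.0286 together, and the replicate block cannot go below 0.125. With normexp 3 pairs, those with miR-342-5p, reached an exact permutation p of 0.0286 (adjusted p = 0.0571). The normexp offset of 50 units is above the signal of miR-342-5p on every array, and its part in these values was not tested.

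Same-numbered CpG and untreated samples, whose arrays lay side by side, deviated with r of 0.33, -0.33, 0.36 and 0.22 across miRNAs. Samples with different numbers had r from -0.65 to 0.77, so these values cannot decide whether same-numbered samples share cells. The reported fit left the samples unpaired, and the replicate block took the numbers as pairs. With the replicate block, 38 miRNAs passed against 30, no member did (adjusted p = 0.0584 for miR-342-3p and 0.0884 for miR-342-5p in limma), and the arm ratio change was -0.06. Over all tested miRNAs the count of calls was 3 with no filter, 13 with normexp, 17 with quantile normalization, 88 without scaling and 5 to 70 when an array was left out.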
